A study of Mus musculus with 12 samples.

Results

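The 6 arrays described here set induced Foxp3-positive CD4 T cells of the mouse against CD4 effector cells that were stimulated without the inducing factors. They are the 3 arrays titled CD4_Expressing Foxp3 and the 3 arrays titled CD4, chosen by title, of 12 in the series. The other 6 arrays hold the same pair of groups for CD8 T cells and are used only where the CD4 and CD8 effects are compared. Resting T cells came from C57BL6 animals that carry a Foxp3-GFP reporter, in which green fluorescent protein marks cells that express Foxp3. In each well 200000 of them met 20000 CD11c dendritic cells of the BALB/c strain, which carry foreign tissue antigens. Control cells received IL-2 at 5 ng/mL, and their GFP-negative cells were sorted. In the Foxp3-positive group retinoic acid (40 nM) and TGF-β (5 ng/mL) were added to the same IL-2, and the GFP-positive cells were sorted. CD4 cells were cultured for 5 days and CD8 cells for 4 days. Both the added factors and the sort separate the groups, so what either contributed cannot be told apart, and GFP-negative cells from wells with TGF-β and retinoic acid are not among the samples. Cells were pooled before the sort, and the labels do not say whether replicates A, B and C stand for different cultures or animals. Each p-value thus reflects no more than the spread among these arrays, and that spread may be technical.

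Regulatory T cells restrain immune responses, and Foxp3 is the transcription factor that defines them. Conventional CD4 cells can acquire Foxp3 outside the thymus when antigen, IL-2 and TGF-β act together, and retinoic acid, made by dendritic cells of the gut, favours this step and gives the cells receptors for the intestine. TGF-β signals through its receptor kinases to Smad proteins, and effector programmes of helper cells run through other factors, Gata3 for the type 2 cytokines IL-4, IL-5 and IL-13 and T-bet (Tbx21) for interferon-γ. Cells stimulated by foreign dendritic cells with IL-2 alone can follow either effector course.

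Values are log2 expression levels of 22180 genes, 1 transcript cluster per gene, and each fold change comes from 1 limma model of all 12 arrays, with its standard error and its p adjusted over all genes. A gene was called at an adjusted p under 0.05, and "rose" and "fell" are used only of called genes, as higher or lower in Foxp3-positive cells. Array medians ranged from 5.23 to 5.33. No background level was available, so where a group's mean lies around or under 5.60, the median of the genes' mean levels, its fold compares array signals and says little of RNA amounts. RMA gives all arrays 1 distribution, and in sorted bulk samples fewer cells that express a gene and less RNA per cell cannot be told apart. Over all genes, which are not independent, arrays of 1 group correlated at 0.992 to 0.994 and arrays of the different CD4 groups at 0.962 to 0.972. Of 22180 genes 2680 rose (12.1%) and 2305 fell (10.4%), of which 501 rose (2.26%) and 610 fell (2.75%) by at least 2-fold. The 3 arrays of each group did not overlap for 37.8% of genes, with 20.2% higher and 17.6% lower. These shares are the background against which every gene group below is counted. They run over all genes, while most pathway lists hold mainly genes at or above 5.60. Fitted alone, genes at or above that level gave 2817 rises and 2104 falls, so calls were more frequent among them. Whether a list above the shares of all genes also stands above genes of like level was not tested. The median change of all genes was 0.00 on the log2 scale.

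Foxp3 followed the sort. It stood at 5.68, 6.07 and 5.52 in the controls and at 12.44, 12.39 and 12.49 in Foxp3-positive cells, and so rose 103-fold (6.68 ± 0.23 on the log2 scale, limma adjusted p = 5.83e-10). The groups were far apart, and the Foxp3-positive arrays lay close together. Cd4, the helper coreceptor, was at 12.27, 12.45 and 12.22 in controls and 11.87, 11.84 and 12.05 in Foxp3-positive cells and was not called (log2 fold change -0.39 ± 0.22, adjusted p = 0.253), although it passed when only the 6 CD4 arrays were fitted (adjusted p = 0.0313). Cd8b1, a chain of the CD8 coreceptor, fell by 1.55 ± 0.14 on the log2 scale from a control mean of 7.72 to 6.17 (adjusted p = 2.81e-06). The arrays of Cd8a, the other chain, overlapped, at 6.68, 7.12 and 5.72 against 7.34, 7.11 and 8.16. Its call (1.03 ± 0.30, adjusted p = 0.0273) was lost without control replicate C, where the change was 0.64, and without Foxp3-positive replicate C, where it was 0.72 (adjusted p from 0.0967 to 0.107). It was also lost with only the 6 CD4 arrays (adjusted p = 0.0987) and in a test for changes over 1.2-fold (adjusted p = 0.121). All 7 measured T cell markers stood above 5.60. Of these Cd3e rose by 0.30 and Cd3d, Cd3g, Cd28 and Zap70 fell (log2 changes of -0.48, -0.37, -0.56 and -0.59). The list median was -0.39. The Cd3e call was lost with only the 6 CD4 arrays and without control replicate A or C or Foxp3-positive replicate A or C. In the test for changes over 1.2-fold Cd3e, Cd3d and Cd28 were not called (adjusted p = 0.256 for Cd3d and 0.107 for Cd28). The summed signal of the 7 markers spanned 14.38 to 14.55 in controls and 14.15 to 14.37 in Foxp3-positive cells on the log2 scale.

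**Figure D1:**
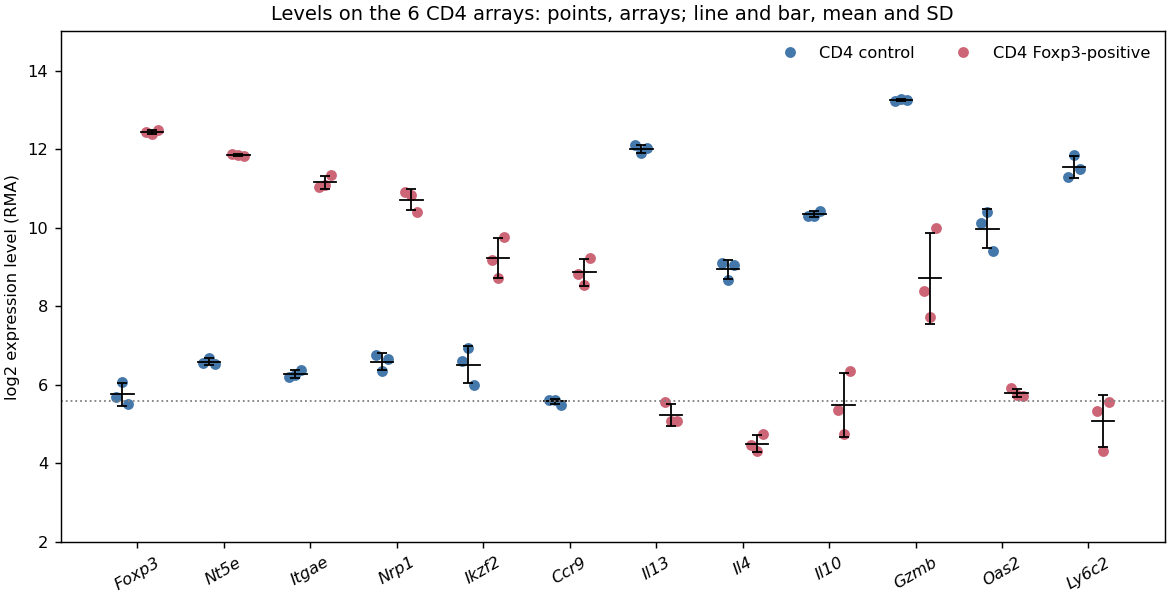
Points are the log2 expression levels of 12 named genes on each CD4 array, blue for controls and red for Foxp3-positive cells, with the mean and SD of the 3 arrays as line and bar and the median of all genes (5.60) dotted. No control array of Foxp3, Nt5e, Itgae, Nrp1, Ikzf2 or Ccr9 reached a Foxp3-positive array, the order was turned for Il13, Il4, Il10, Gzmb, Oas2 and Ly6c2, and the Foxp3-positive arrays of Gzmb and Il10 were spread most widely of the 12 genes.

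Genes known from regulatory T cells split into rises and falls. Of 30 measured members of the signature 14 rose and 13 fell, with a median change of 0.08, against 12.1% and 10.4% of all genes. Nt5e, which encodes CD73, the enzyme that makes adenosine from AMP, was at 6.55, 6.69 and 6.52 in controls and at 11.87, 11.86 and 11.82 in Foxp3-positive cells. Its rise was 38.5-fold (5.27 ± 0.17 on the log2 scale, adjusted p = 4.17e-10), with each group tightly clustered. Itgae, the CD103 integrin chain that binds E-cadherin, rose 29.3-fold, from 6.21, 6.24 and 6.38 to 11.03, 11.09 and 11.34. The orphan receptor gene Gpr83 rose 18-fold (4.17 ± 0.16, adjusted p = 2.25e-09). Nrp1, a semaphorin receptor often used as a sign of thymic origin, rose 17.4-fold from 6.76, 6.36 and 6.66 to 10.90, 10.84 and 10.40. Also higher were the zinc finger factor Ikzf2 (Helios), 6.55-fold, and the folate receptor family gene Izumo1r, by 1.78 ± 0.12 on the log2 scale. Ikzf4 (Eos), a partner of Foxp3, and Lrrc32, which holds latent TGF-β at the cell surface, rose by 1.14 ± 0.11 and 1.12 ± 0.20.

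The members that fell were led by secreted products. Il10, the anti-inflammatory cytokine, was at 10.30, 10.30 and 10.43 in controls and at 5.35, 4.75 and 6.35 in Foxp3-positive cells, a 29-fold fall (log2 fold change -4.86 ± 0.30, adjusted p = 1.1e-07). Penk, the precursor of enkephalin, went from 12.08, 12.10 and 11.95 to 7.53, 7.17 and 7.26, a fall of 26.4-fold. No Foxp3-positive array of either gene came near a control array. Ecm1, a secreted matrix protein of activated helper cells, fell 5.82-fold, and Ebi3, a subunit of the cytokine IL-35, fell 2.43-fold. Some costimulatory receptors that mark both activated and regulatory cells also fell. Their log2 changes were -1.84 for Tnfrsf9, -0.89 for Tnfrsf4, -0.61 for Tnfrsf18 and -0.55 for Icos. Tnfrsf1b, a TNF receptor of the same list, rose by 0.58 ± 0.11. Il2ra, the high-affinity IL-2 receptor chain CD25, was not called (log2 change -0.08 ± 0.10, adjusted p = 0.612), with controls at 12.90 ± 0.07 (SD, n = 3) and Foxp3-positive cells at 12.82 ± 0.03 (SD, n = 3). Ctla4, an inhibitory receptor of regulatory cells, was not called either (0.25 ± 0.15, adjusted p = 0.288).

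Of the genes around adenosine, most fell or were not called. Of 11 measured genes of adenosine and ATP signalling 2 rose and 5 fell, with a median of -0.50. Slc29a1, a nucleoside transporter, rose 3.21-fold from 8.15, 7.77 and 8.08 to 9.73, 9.86 and 9.45. Entpd1 (CD39), which makes the AMP that Nt5e uses, fell by 0.57 ± 0.12 on the log2 scale. The adenosine-removing enzymes Adk and Ada fell (log2 changes of -1.54 ± 0.12 and -0.79 ± 0.10), and P2ry14, a receptor for UDP-sugars, fell 12.3-fold. The ATP-gated channel P2rx7 was not called (-0.23 ± 0.18, adjusted p = 0.405).

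In the TGF-β pathway, the called negative regulators of the signal rose and the called ligands fell. Of 31 measured members 15 rose and 6 fell, with a median of 0.32. Ldlrad4, a membrane protein that inhibits Smad signalling, was at 6.28, 6.33 and 6.30 in controls and at 11.08, 11.19 and 10.98 in Foxp3-positive cells. Its 27.5-fold rise (4.78 ± 0.13, adjusted p = 6.96e-11) left a wide gap between the groups. The Smad corepressor Skil rose 4.25-fold from 7.58, 7.63 and 7.63 to 9.70, 9.77 and 9.64. Other brakes rose less, the inhibitory Smad7 by 1.37, the corepressor Ski by 0.97, Pmepa1, which sequesters Smads, by 1.14, and the ubiquitin ligases Smurf1 and Smurf2 by 0.80 and 0.66.

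Among receptors and signal carriers, the kinase receptor Tgfbr1 rose 3.73-fold (1.90 ± 0.12, adjusted p = 1.99e-07), while Tgfbr2 was not called (-0.12 ± 0.11, adjusted p = 0.468). Of the Smads that carry the signal, Smad3 rose by 0.38 ± 0.12, and Smad2 and Smad4 were not called (-0.21 ± 0.08 and 0.13 ± 0.08). Ligands were lower. Tgfb3 was at 9.11, 9.60 and 9.66 in controls and 6.92, 6.97 and 7.49 in Foxp3-positive cells, a 5.02-fold fall, and Tgfb1 fell by 0.49 ± 0.10. Tgfbr3, a coreceptor, and Itgav, an integrin chain that can release active TGF-β, fell (-1.52 and -1.15 on the log2 scale). Id2, which TGF-β is known to repress, fell by 2.02 ± 0.16, and Id3 rose by 1.69 ± 0.21.

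Of 21 measured genes of retinoic acid receptors and metabolism 4 rose and 2 fell, with a median of 0.03, against calls of either direction in 22.5% of all genes. Dhrs3, which turns retinaldehyde back to retinol, rose 14.9-fold from 5.80, 6.01 and 6.68 to 10.14, 10.02 and 10.01. Cyp26b1, which degrades retinoic acid, rose 5.08-fold from 5.33, 5.79 and 5.77 to 7.88, 7.69 and 8.36, and the related Cyp26a1 by 1.53 ± 0.21 on the log2 scale. The corepressor Nrip1, which binds ligand-bound retinoic acid receptors, rose by 2.04 ± 0.13. The 2 members that fell were Stra6, a retinol transporter (4.23-fold, from 9.65, 9.04 and 10.10 to 7.74, 7.28 and 7.53), and Tgm2, a crosslinking enzyme (2.74-fold). None of the 6 receptor genes was called, with changes from -0.27 (Rxra) to 0.26 (Rxrb).

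Receptors for homing to the gut rose, and 3 integrin genes fell. Of 19 measured genes of homing, retention and egress 8 rose and 3 fell, with a median of 0.26. Ccr9, the receptor for the small intestine's chemokine, was at 5.62, 5.62 and 5.50 in controls and at 8.83, 8.54 and 9.23 in Foxp3-positive cells, a 9.75-fold rise (3.28 ± 0.17, adjusted p = 3.1e-08). Ccr6 rose 6.68-fold from 4.76, 4.38 and 4.47 to 7.34, 7.44 and 7.05. Gpr15, a receptor for the large intestine, and Itga4, the integrin chain of the gut homing receptor, rose 2.83-fold and 2.37-fold, while its partner Itgb7 was not called (0.26 ± 0.12, adjusted p = 0.156). Klf2, the factor that drives egress genes, its target S1pr1 and the lymph node receptor Ccr7 rose by 1.66, 0.81 and 1.06 on the log2 scale. Itgb3, the β chain of the vitronectin receptor, fell 20.3-fold from 11.38, 11.44 and 11.37 to 6.97, 6.28 and 7.91. The collagen receptor chain Itga2 fell 4.23-fold and Itgal, the LFA-1 chain, 4.06-fold.

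Of 11 measured receptors for inflammatory chemokines 1 rose and 5 fell, with a median of -0.40. Ccr1 fell 15.1-fold from 7.84, 7.95 and 7.63 to 4.22, 3.91 and 3.54. The monocyte chemokine receptor Ccr2, the tissue receptor Cxcr6, Cxcr4 and Ccr3 fell (log2 changes of -2.96, -2.78, -1.45 and -1.40). The member that rose was Cxcr5, the receptor for B cell follicles (2.08 ± 0.23), and 2 members rose without control replicate B or Foxp3-positive replicate C. Ccr8 and Ccr4, receptors that both type 2 and regulatory cells can carry, were not called (-0.28 ± 0.14 and 0.13 ± 0.18). Among 15 measured chemokine ligands 3 rose and 5 fell, with 3 falling without control replicate A. Xcl1, which attracts cross-presenting dendritic cells, rose 21.7-fold from 5.06, 5.49 and 5.04 to 9.57, 9.66 and 9.68, and Ccl5 fell 5.9-fold. Cxcl3 fell by 3.20 ± 0.30, from a control mean of 5.68 that lies close to the median of all genes.

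Of the 22180 genes, each read from 1 transcript cluster, Il13, a type 2 cytokine, had the largest fall. It was at 12.11, 11.89 and 12.02 in controls and at 5.57, 5.07 and 5.08 in Foxp3-positive cells, a 109-fold fall (log2 fold change -6.77 ± 0.15, adjusted p = 2.12e-11). All 3 Foxp3-positive arrays lay below the median of all genes. Il24, a cytokine of the IL-10 family, fell 104-fold from 11.11, 10.92 and 11.30 to 4.33, 4.56 and 4.34. Il4, the cytokine that starts type 2 responses, fell 21.6-fold from 9.10, 8.66 and 9.06 to 4.46, 4.32 and 4.74, and Il5, which supports eosinophils, 11.1-fold from 8.25, 8.22 and 9.18 to 5.13, 4.86 and 5.23. In all, 15 of 21 measured type 2 genes fell and 1 rose, with a median of -1.63.

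Several regulators of the type 2 programme fell with its products. The factor Gata3 fell 2.34-fold from 10.79, 10.63 and 10.87 to 9.65, 9.37 and 9.60, and the regulator Nfil3 and the IL-4 receptor chain Il4ra also fell (log2 changes of -2.05 and -1.32). Stat6, which carries the IL-4 signal, was not called (0.13 ± 0.10, adjusted p = 0.369). Pparg, a nuclear receptor of type 2 cells, fell 10.6-fold. Epas1 (HIF-2α), a hypoxia-inducible factor, fell 68.7-fold from 11.57, 11.64 and 11.60 to 5.33, 5.42 and 5.76. Cyp11a1, the enzyme that starts steroid synthesis, fell 40.4-fold, from 11.75, 11.67 and 11.75 to 6.34, 6.43 and 6.40. Its second transcript cluster gave a log2 change of -0.97, so the size of this change depends on the probes. The member that rose was Il17rb, a chain of the IL-25 receptor, 5.3-fold from 5.69, 5.18 and 5.72 to 8.06, 7.88 and 7.86.

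Type 1 genes fell more often than they rose. Of 19 measured members 10 fell and 5 rose, with a median of -0.96. Ly6c2, a surface antigen of effector cells, was at 11.30, 11.84 and 11.49 in controls and 5.34, 4.32 and 5.56 in Foxp3-positive cells, an 88.8-fold fall, though its probes can also read the near copy Ly6c1. Il12rb2, the inducible chain of the IL-12 receptor, fell 30-fold from 11.50, 11.57 and 11.51 to 6.40, 5.63 and 7.84, and its partner Il12rb1 fell by 2.87 on the log2 scale. Ifng fell 12.6-fold from 8.66, 8.29 and 7.46 to 4.81, 4.20 and 4.41. The Foxp3-positive arrays of Il12rb2 were spread widely and still lay far below every control. The factors Tbx21, Eomes and Runx3 fell (log2 changes of -1.75, -2.37 and -1.03), and the signal carrier Stat4 was not called (-0.25 ± 0.12, adjusted p = 0.155). The 5 that rose were the cytokine genes Lta (5.1-fold, from 8.86, 8.59 and 8.70 to 11.28, 11.21 and 10.72) and Tnf (1.95-fold), the interferon-γ receptor chains Ifngr1 and Ifngr2 (0.35 and 1.26) and Il18r1 (2.03-fold).

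Cytotoxic genes were mostly lower. Of 19 measured members 13 fell (8 in a test for changes over 1.2-fold) and 3 rose, with a median of -0.88. Gzmb, the granzyme that cleaves caspase substrates, stood at 13.22, 13.27 and 13.25 in controls and at 8.40, 7.74 and 9.99 in Foxp3-positive cells, a 23.2-fold fall (log2 fold change -4.54 ± 0.39, adjusted p = 2.13e-06). Gzma fell 25.1-fold from 12.78, 13.04 and 12.81 to 8.32, 7.20 and 9.15, and Gzmd 27.2-fold from 8.28, 8.89 and 7.55 to 3.16, 3.97 and 3.29. Some granzyme genes, Gzmd among them, are near copies of each other, so the share of Gzmd is uncertain. The controls of Gzmb lay close together, while Foxp3-positive replicate C stood highest and replicate B lowest for Gzma and Gzmb. The same order held for Il10, Il12rb2 and Itgb3, and for fallen genes of other lists, among them Gbp9, Gbp10, Fosl2, Satb1, S100a6 and Slc2a3. It did not hold for all that fell, such as Il13 and Oas2. Foxp3 itself was also highest in replicate C, within a span of 12.39 to 12.49. What this order reflects was not tested. The pore protein Prf1 fell 3.79-fold. The members that rose were Ctsw, a cathepsin of cytotoxic cells (4.87-fold, from 10.05, 10.27 and 9.83 to 12.30, 12.42 and 12.28), the lectin-like receptor Klrd1 (1.49 ± 0.20) and the lysosomal membrane protein Lamp1 (0.32 ± 0.08).

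Genes that type I interferon induces fell almost as a block. Of 27 measured members 25 fell and none rose, with a median of -2.08, against 10.4% of all genes that fell. The 2 others were Ifit2 (-0.22 ± 0.14, adjusted p = 0.313) and Ifit3 (0.23 ± 0.12, adjusted p = 0.21). Oas2, a sensor enzyme that makes oligoadenylates from double-stranded RNA, was at 10.12, 10.39 and 9.42 in controls and at 5.92, 5.75 and 5.72 in Foxp3-positive cells, an 18.1-fold fall (-4.18 ± 0.20, adjusted p = 1.05e-08). Oas3 fell 8.42-fold from 9.64, 9.56 and 9.38 to 6.62, 6.23 and 6.52, and the antiviral GTPase gene Mx1 14.4-fold from 7.16, 6.97 and 6.26 to 2.97, 2.95 and 2.92. Control replicate C was the lowest control for all 3 genes and still lay far above the Foxp3-positive arrays. Irf7, which amplifies the interferon response, fell 5.92-fold, and Irf9 and Stat2, parts of the factor that binds interferon response elements, also fell (log2 changes of -0.41 and -1.50).

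Promoters of these genes were read for the interferon-stimulated response element, searched as GAAA, then NN, then GAAA on both strands in the 250 bases before each start, in RefSeq's mouse promoters of build GRCm38.p6. The letters occurred in 8 of 24 promoters (33.3%) of the 19 members found in that table, against 978 of 32851 promoters overall (2.98%). Of the 8 genes that hold a match 7 fell, Isg15, Oas3, Trim30a, Bst2, Stat2, Rsad2 and Ifit1, and Ifit3 was not called, beside 25 falls among the 27 members of the whole list. In the list of interferon-γ-induced genes the share was 6 of 14 promoters (42.9%) of 12 genes, and of the 6 genes with a match Gbp3 and Gbp5 rose, Gbp7 and Irgm1 fell, and Igtp and Irgm2 were not called. A match is only a description of the sequence and not proof of a bound site. It is 1 of 7 motifs searched over the 27 pathway lists, and is shown because its genes carry the largest median change. The 4 windows of genes that fell and the 1 of Ifit3 are printed 5′ to 3′ on the strand of the gene to show how alike these letters are across genes with different changes. Each window reaches 35 bases to either side of the match farthest from the start, and capitals mark every match in it, of which Oas3 has 1, Bst2, Ifit1 and Ifit3 have 2 and Isg15 has 3, overlapping in Bst2 and Isg15. Oas3 lies at chr5:120777690-120777769 on the minus strand, Bst2, which encodes tetherin, at chr8:71537558-71537637 on the minus strand and Isg15, a ubiquitin-like protein, at chr4:156200852-156200931 on the minus strand. Ifit1 and Ifit3, relatives that bind RNA or signalling proteins, lie at chr19:34640750-34640829 and chr19:34583338-34583417 on the plus strand, and share the letters of their first match, which lies on the opposite strand.
Oas3: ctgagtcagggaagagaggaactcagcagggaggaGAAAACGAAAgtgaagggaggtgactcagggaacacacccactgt
Bst2: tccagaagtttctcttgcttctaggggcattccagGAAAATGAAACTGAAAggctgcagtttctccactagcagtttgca
Isg15: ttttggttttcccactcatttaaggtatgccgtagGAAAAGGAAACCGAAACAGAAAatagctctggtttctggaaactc
Ifit1: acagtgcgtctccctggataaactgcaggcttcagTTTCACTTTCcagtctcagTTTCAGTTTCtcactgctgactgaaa
Ifit3: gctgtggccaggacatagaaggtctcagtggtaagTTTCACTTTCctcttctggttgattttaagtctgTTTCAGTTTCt
Beside these letters, Isg15 fell 4.86-fold from 7.68, 7.73 and 7.80 to 5.60, 5.27 and 5.49, and Bst2 5.14-fold from 10.58, 10.53 and 10.25 to 7.95, 7.89 and 8.43. Ifit1 fell 8.09-fold from 8.65, 9.22 and 7.96 to 5.74, 5.30 and 5.75. Ifit3, with the same first match as Ifit1, was at 5.99, 5.68 and 5.90 against 6.05, 6.03 and 6.17.

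Genes that interferon-γ induces fell in part. Of 21 measured members 12 fell and 2 rose, with a median of -0.56. The guanylate-binding protein gene Gbp9 fell 7.24-fold from 10.18, 10.57 and 9.80 to 7.33, 6.82 and 7.82, and Gbp10, Gbp4 and Gbp8 also fell (log2 changes of -2.29, -2.27 and -2.05). These genes are near copies, so their shares are uncertain. Gbp5 and Gbp3 rose by 0.67 ± 0.10 and 0.39 ± 0.12, and only 1 of these rises was called without control replicate C, Foxp3-positive replicate A or Foxp3-positive replicate C. The peptide transporter genes Tap1 and Tap2 and the factor Irf1 fell (-0.89, -0.69 and -0.56 on the log2 scale), while the immunoproteasome subunit Psmb8 was not called (-0.19 ± 0.08, adjusted p = 0.122). Irgm2, Igtp and Iigp1, interferon-inducible GTPases, were not called either, with changes of 0.02, -0.07 and 0.17.

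**Figure D2:**
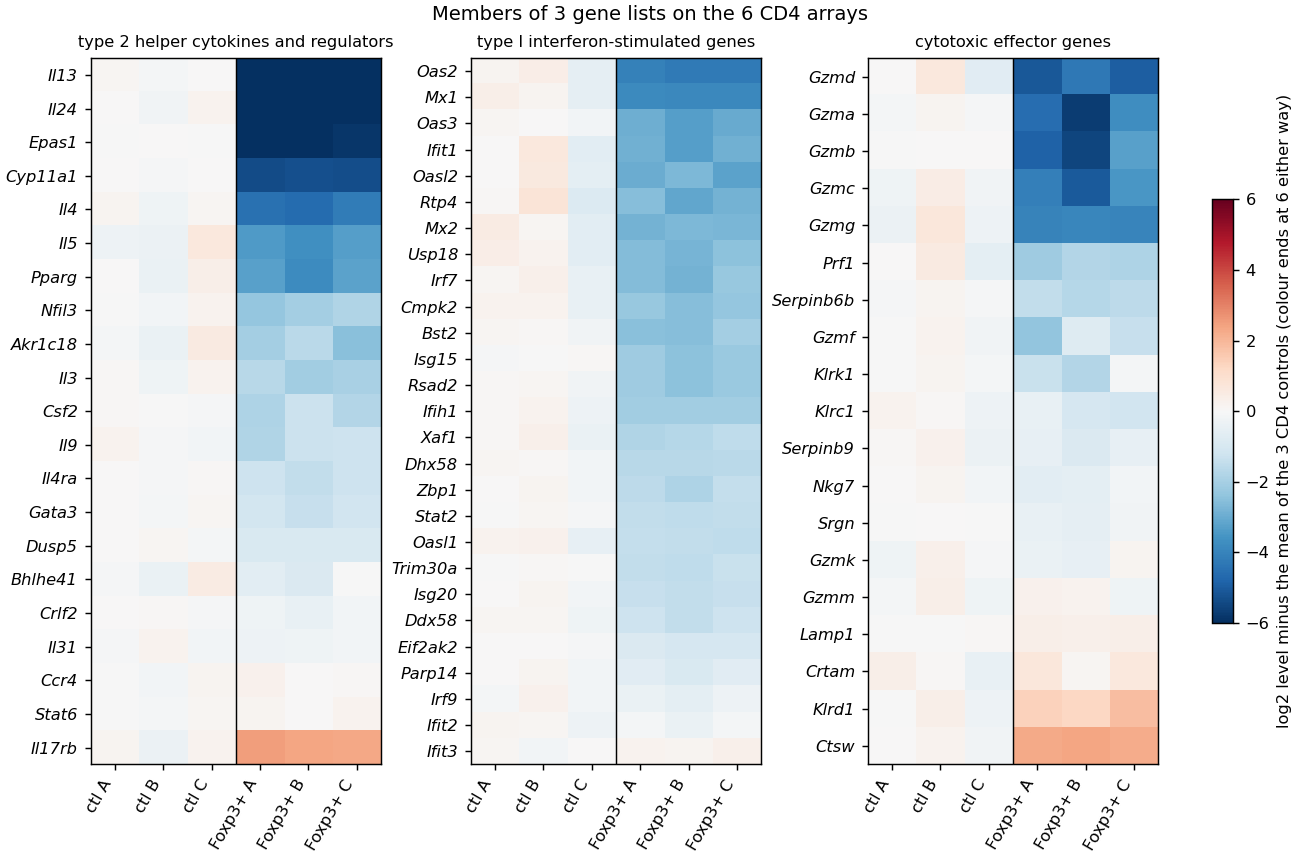
Each cell gives a gene's log2 level on 1 CD4 array minus the mean of the 3 controls, for the measured members of the type 2, type I interferon and cytotoxic lists, with blue below and red above the controls and the colour ending at 6 either way. The Foxp3-positive columns are blue for most rows of all 3 lists, with Il17rb, Klrd1 and Ctsw in red and Ifit2, Ifit3, Stat6 and Ccr4 near white.

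Transcription factors of effector cells moved both ways. Of 24 measured effector factors 12 fell and 8 rose, with a median of -0.36. The AP-1 factor Fosl2 fell 6.91-fold from 10.10, 10.08 and 10.35 to 7.23, 6.95 and 7.98, and its relative Batf 6.01-fold from 10.05, 9.95 and 10.15 to 7.46, 7.17 and 7.75. Prdm1 (Blimp-1), a driver of terminal differentiation and of Il10, fell 4.24-fold, and Maf, another Il10 regulator, 1.57-fold. Jun rose 4.13-fold, and the Ikaros relatives Ikzf2 (from 6.61, 6.93 and 6.01 to 9.19, 8.73 and 9.76) and Ikzf3 rose 6.55-fold and 4.95-fold, while Ikzf1 fell by 0.56 on the log2 scale. Irf4, which effector and regulatory cells share, was not called (0.17 ± 0.14, adjusted p = 0.453).

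Of 15 measured genes of naive and memory T cells 10 rose and 3 fell, with a median of 0.97, the highest of the 27 pathway lists. Foxp1, a factor of quiescence, rose 3.59-fold from 8.98, 9.13 and 8.97 to 10.91, 10.94 and 10.78. Foxo1, its partner in quiescence, Bach2, which restrains effector genes, Cd27 and Slamf6 rose by 0.88, 0.97, 1.17 and 1.32 on the log2 scale. The members that fell were Satb1, a chromatin organiser that Foxp3 is known to repress (6.65-fold, from a control mean of 11.05 ± 0.04 to 8.32 ± 0.32, SD, n = 3), Il7r, the IL-7 receptor chain (-1.30), and the adhesion molecule Pecam1 (-0.96). Lef1, a factor of naive cells, was not called (-0.01 ± 0.09, adjusted p = 0.938).

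**Figure D3:**
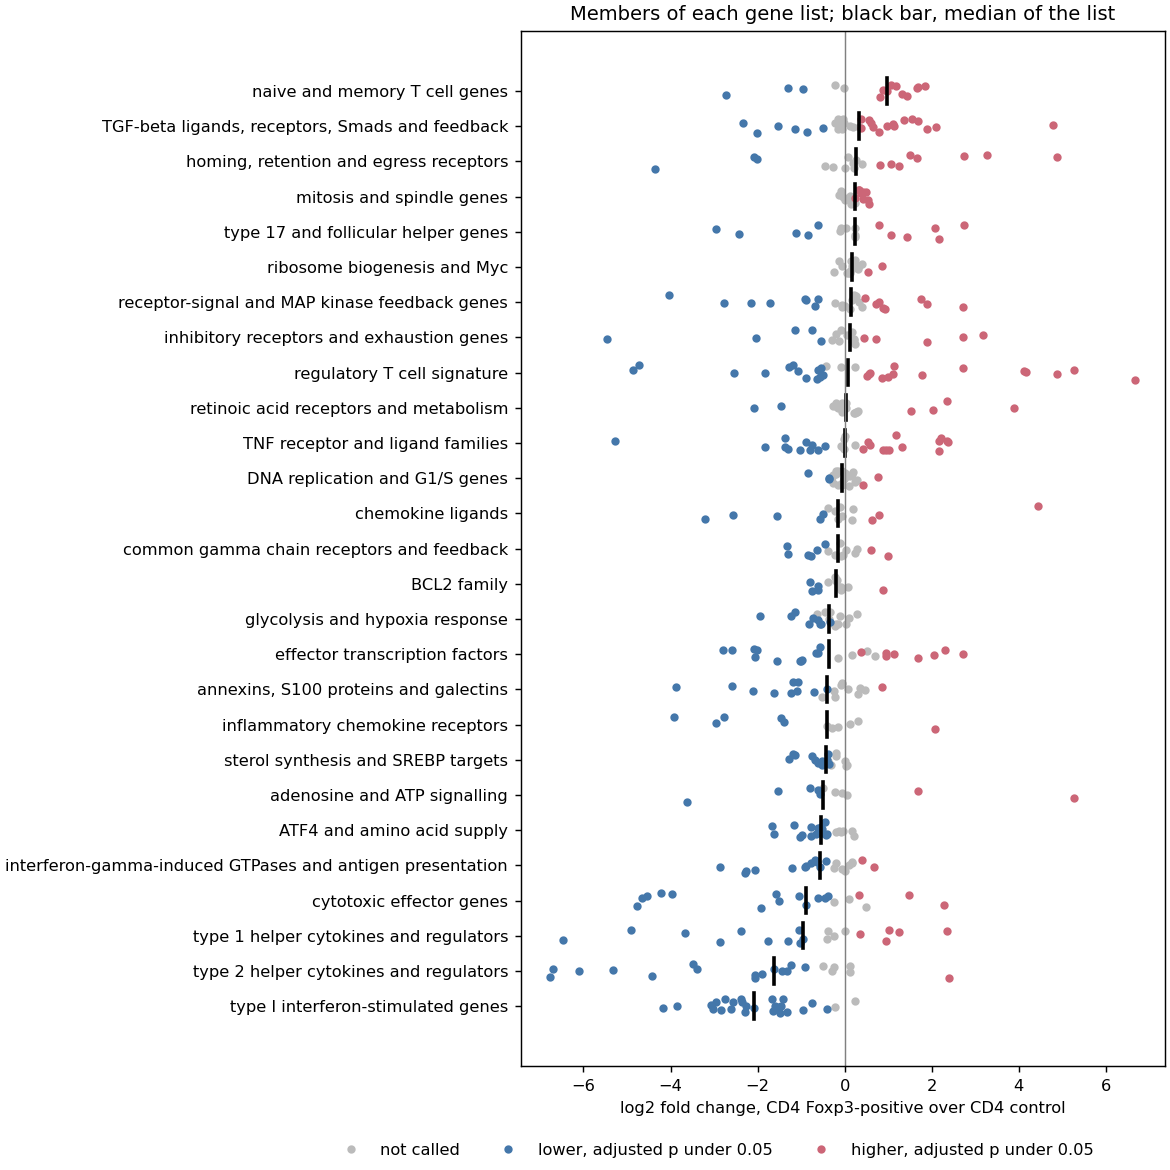
Each point is the log2 fold change of 1 measured gene between CD4 Foxp3-positive cells and controls, in rows for the 27 pathway lists, red where it rose, blue where it fell and grey where it was not called, and black bars are list medians. Medians run from -2.08 for type I interferon-stimulated genes to 0.97 for naive and memory genes, and most lists hold calls in both directions.

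Inhibitory receptors moved both ways. Of 20 measured members of this list 5 rose and 5 fell. Havcr2 (TIM-3) fell 43.8-fold from 10.61, 10.80 and 10.54 to 5.12, 5.15 and 5.32, and Cd200r1, Pdcd1lg2, Cd274 (PD-L1) and Vsir fell (log2 changes of -2.04, -1.15, -0.74 and -0.54). Tox, a factor of chronically stimulated cells, rose 9.01-fold from 4.70, 4.51 and 4.80 to 7.84, 7.90 and 7.79. Nr4a3 and Nr4a1, orphan nuclear receptors that antigen signals induce, rose 6.61-fold and by 1.89, and Pdcd1 (PD-1) and Cd160 by 0.44 and 0.72. Lag3 and Tigit were not called (0.05 ± 0.18 and -0.08 ± 0.16).

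Receptors and ligands of the TNF families also split, with 13 rises and 11 falls among 29 measured. Tnfrsf8 (CD30), a receptor of activated cells, fell 38.5-fold from 11.57, 11.34 and 11.71 to 6.31, 6.02 and 6.49. Cd40lg, the helper signal to B cells, and Fasl, which triggers cell death, fell (-1.37 and -1.29 on the log2 scale). Tnfsf10 (TRAIL) rose 5.15-fold from a control mean of 7.18 ± 0.17 to 9.55 ± 0.10 (SD, n = 3), and Tnfsf11 (RANKL), Cd40 and Tnfrsf13b by 2.21, 2.18 and 2.16. Of 16 measured receptors and feedback genes of the common γ chain cytokines 2 rose, Socs2 (0.99) and Stat5a (0.60), and 6 fell, among them the IL-2 and IL-15 receptor chain Il2rb (-0.63).

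Type 17 and follicular genes were called in both directions, 6 higher and 5 lower of 17 measured. The IL-6 receptor chain Il6ra rose 4.53-fold from 6.91, 6.63 and 7.06 to 9.10, 9.18 and 8.86, and its signalling partner Il6st and the follicular factor Bcl6 rose by 1.44 and 1.07. Il21, a cytokine of follicular helper cells, fell 5.34-fold from 6.92, 6.52 and 7.19 to 4.50, 4.61 and 4.29, and the leukotriene receptor Ltb4r1 fell by 2.96. Il17a and Il17f, the type 17 cytokines, were not called and were low in both groups (means of 4.78 and 5.02 for Il17a, 5.46 and 5.69 for Il17f).

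Genes that respond to antigen receptor signals and MAP kinase feedback genes gave 8 rises and 8 falls among 26. Ier3, an early gene of survival, fell 16.4-fold from 9.64, 9.59 and 10.13 to 5.45, 5.49 and 6.31. The phosphatases Dusp10 and Dusp6 and the ubiquitin ligase Rnf128 fell (log2 changes of -2.76, -1.72 and -2.15). Nr4a3 rose from 6.10, 6.14 and 5.62 to 8.84, 8.65 and 8.54, and Egr2, Egr3 and Spry1, which restrain receptor signals, by 0.93, 0.89 and 1.75, while Egr1 fell by 0.88. Of 21 measured annexins, S100 proteins and galectins 10 fell and 1, Capg, rose (2 without control replicate B). Anxa1, a resolver of inflammation, fell 14.7-fold from 8.73, 9.06 and 8.69 to 4.96, 5.14 and 4.73, and S100a6 5.97-fold. In the BCL2 family 4 of 13 members fell, the killer Bak1, the guardians Bcl2l1 and Bcl2a1a and the killer Bcl2l11, with log2 changes from -0.80 to -0.60, and Pmaip1 (NOXA) rose by 0.89.

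Of 23 measured genes of ATF4 and amino acid supply 16 fell and none rose (median -0.54), with 8 lower when the test required a change over 1.2-fold (limma's treat). Asns, which makes asparagine, fell 3.15-fold from 8.77, 8.53 and 8.83 to 7.07, 7.02 and 7.07. Atf4 itself and the amino acid transporter Slc7a5 also fell (log2 changes of -0.98 and -1.16). Of 20 measured sterol genes 13 fell and none rose (median -0.44), with 5 lower in that stricter test. The lanosterol synthase gene Lss fell 2.4-fold from 9.21, 9.05 and 9.53 to 8.04, 8.04 and 7.91. Of 21 measured genes of glycolysis and the hypoxia response 9 fell and none rose (median -0.35), with 5 lower in the stricter test. The glucose transporter Slc2a3 fell 3.85-fold from 11.11, 11.29 and 11.51 to 9.20, 8.81 and 10.06, and Gapdh was not called (-0.10 ± 0.07, adjusted p = 0.394).

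Of 22 measured mitosis and spindle genes 9 rose and none fell (median 0.25). Nusap1, which bundles spindle microtubules, rose 1.47-fold from 9.79, 9.79 and 9.62 to 10.33, 10.36 and 10.18, and Kif20a and Ccnb2 rose 1.46-fold and 1.41-fold. These changes were small, and 5 in place of 9 members rose without control replicate B or C, or without Foxp3-positive replicate A or B. Only 1 rose in the test that required a change over 1.2-fold, where Kif20a and Ccnb2 were not called (adjusted p = 0.0989 and 0.0865). Of 27 measured replication genes 2 rose (Cdca7 and Gins1, by 0.77 and 0.42) and 3 fell (Ccnd3, Ccnd2 and E2f1). Their median change was -0.05, and of all genes 12.1% rose and 10.4% fell. Only 1 of the 3 was lower without control replicate A or C or Foxp3-positive replicate B or C. The Gins1 rise was not called in the test for changes over 1.2-fold (adjusted p = 0.414). Of 17 measured ribosome biogenesis genes 2 rose, Myc (0.85 ± 0.11, from 10.43, 10.36 and 10.23 to 11.21, 11.08 and 11.27) and Nop16 (0.54 ± 0.16). The Nop16 rise was not called without control replicate B or C or Foxp3-positive replicate A or B (adjusted p from 0.0634 to 0.0999).

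Among the largest rises of all were several genes better known from other tissues. Apol9b, of the apolipoprotein L family, rose 64.1-fold from 4.18, 3.03 and 4.63 to 9.99, 10.18 and 9.68, though its probes can also read the near copy Apol9a. The adhesion gene Hepacam2 rose 36-fold from 2.98, 3.55 and 3.79 to 8.57, 8.80 and 8.47, and Tph1, which starts the making of serotonin from tryptophan, 35.6-fold from 5.22, 4.26 and 4.46 to 9.56, 10.05 and 9.79. Control values of all 3 genes lay below 5.60, so these folds are ratios of signal. Glp1r, the receptor for glucagon-like peptide 1, rose 31.2-fold from 5.28, 5.19 and 5.23 to 10.31, 10.61 and 9.68. The SNARE-binding protein Stxbp6, the water and glycerol channel Aqp3 and Atp1b1, a subunit of the sodium pump, rose 27-fold, 24.2-fold and 22-fold. Controls of Glp1r and Aqp3 also lay below 5.60, and control means of Stxbp6 and Atp1b1 were 5.81 and 5.84. The folds of these genes too are ratios of signal. The rule that named the largest rises required the lowest Foxp3-positive array to lie above the highest control. Among the falls, Il1r2, the decoy receptor for IL-1, went from 10.29, 10.66 and 10.76 to 4.79, 4.66 and 4.71, a fall of 57.7-fold. Ermn, which binds actin, fell 35.2-fold and Adam8, a surface protease, 34.2-fold.

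Of 75 measured markers in the 7 lists of other cell types 25 were called (33.3%), against 22.5% of all genes. The list of CD8 T cells had the largest share, with 3 rises and 5 falls among 10 markers. Apart from Cd8a and Cd8b1, its members also stand in the cytotoxic or type 1 lists above. Of 18 measured dendritic cell markers 3 rose (Cd80, Irf8 and Ccl17) and 2 fell (Batf3 and H2-Ab1), and their summed log2 signal was 11.66 to 11.89 in controls and 11.68 to 12.10 in Foxp3-positive cells. Itgax, which encodes the CD11c that defined the dendritic cells, was at 4.95 and 4.87. The H2-Ab1 call (-1.05 ± 0.33, adjusted p = 0.0368) was lost in 4 of the 6 fits that left out 1 array (adjusted p from 0.0797 to 0.158). Of 13 macrophage and monocyte markers 2 rose (Itgam and Lyz2) and 2 fell (Fcgr3 and Cd68), with sums of 9.89 to 10.01 and 9.28 to 9.54, and Csf1r at 4.93 and 4.88. Only 1 macrophage marker rose without replicate A of either group. Of 11 B cell markers 2 rose (Ighm and Cd79b) and 2 fell (Cd22 and Ebf1, the latter not called in 4 of the 6 fits that left out 1 array, with adjusted p from 0.0503 to 0.0795). Their sum of 11.12 to 11.25 in controls and 12.78 to 12.96 in Foxp3-positive cells was carried by Ighm (10.96 and 12.78), and Ms4a1 (CD20) was at 3.82 in both groups.

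Of 6 NK and γδ T cell markers Klri2 rose (2.57 ± 0.21) and Fcer1g fell (-1.38 ± 0.43), with sums of 8.32 to 9.57 and 8.60 to 8.75 and Ncr1 at 4.90 and 4.88. The Fcer1g call was lost in 5 of the 6 fits that left out 1 array (adjusted p from 0.063 to 0.154). Of 14 mast cell, basophil and eosinophil markers Kit, the receptor for stem cell factor, rose 6.63-fold and Ccr3 fell, with sums of 8.53 to 9.02 and 9.30 to 10.01. The mast cell protease Cpa3 was at 6.94, 6.91 and 6.14 in controls and 8.31, 6.04 and 8.33 in Foxp3-positive cells, so that replicate B stood apart and the gene was not called (0.90 ± 0.47, adjusted p = 0.211). It was called without that replicate (1.66, adjusted p = 0.000219), while the receptor chain Fcer1a was at 2.77 and 3.27. Without control replicate A or Foxp3-positive replicate B 3 of these markers rose. Of 10 CD8 T cell markers 3 rose and 5 fell (3 without control replicate A or B or Foxp3-positive replicate B), with sums of 13.37 to 13.66 and 12.89 to 13.07, and none of 3 red cell and platelet markers was called. What part any of these cells had in the changes above was not tested.

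The CD8 arrays allow a test of whether a change differed between the lineages, at 5 and 4 days of culture. The difference of the CD4 and CD8 effects was called for 2993 of 22180 genes (13.5%), and for 1859 (8.38%) together with a call in CD4 cells. Genes called the same way in both lineages numbered 1958, which is 39.3% of the CD4 calls and 44.2% of the CD8 calls, and 310 were called in opposite directions. The changes correlated at 0.554 over genes, which are not independent. For Foxp3 the difference of -0.14 ± 0.32 was not called (adjusted p = 0.838), and Nt5e rose more in CD4 cells (difference 1.35 ± 0.24, adjusted p = 0.00263). Most of the Nt5e difference lay in the controls, at 6.58 in CD4 and 7.67 in CD8 cells. The Foxp3-positive groups stood at 11.85 and 11.59.

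Il13 differed most of the genes named by rule. The CD4 effect on Il13 was lower than the CD8 effect by 6.59 ± 0.21 (adjusted p = 2.57e-09), since CD8 controls and CD8 Foxp3-positive cells stood at 5.53 and 5.35. Il24, Il10, Tgfb3, Il4 and Il1r2 differed by -5.94, -5.72, -5.26, -5.02 and -4.93 in the same direction. CD8 controls of Il24, Il10, Il4 and Il1r2 stood at 5.62, 5.92, 4.43 and 5.77, around or under 5.60. A large fall of these genes could thus not be seen in CD8 cells. Tgfb3 fell in CD4 cells and rose in CD8 cells, where it went from 5.80 to 8.74. In all, 16 of 21 type 2 genes had a lower and 1 a higher CD4 effect, against 6.01% and 7.48% of all genes. For type I interferon-stimulated genes the CD4 effect was lower in 25 of 27, and the CD8 median change was 0.02. Members differed in CD8 cells, where Mx1 and Oas3 fell too (log2 changes of -2.35 and -0.88) and Oas2 was not called (0.15). CD8 controls stood at 5.86 for Oas2, where CD4 controls stood at 9.98, and both Foxp3-positive groups were at 5.80 and 6.01. For interferon-γ-induced genes the CD4 effect was lower in 14 of 21 and higher in none.

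Cell cycle genes differed the other way. The CD4 effect was higher in 20 of 22 mitosis genes and 17 of 27 replication genes and lower in none, with CD8 medians of -0.50 and -0.61 against 0.25 and -0.05 in CD4 cells. Nusap1 differed by 1.14 ± 0.13 (adjusted p = 0.000129). Regulatory signature genes had a lower CD4 effect in 16 of 30 and a higher one in 3, Nt5e, Nrp1 and Ikzf2. Ikzf2 stood at 6.52 in CD4 and 8.84 in CD8 controls, and at 9.23 and 9.56 in the Foxp3-positive groups. The genes with the highest CD4 effects relative to CD8 by the naming rule were Cmah and Galnt3, which build sialic acid forms and O-linked glycans, Il18r1, the sialyltransferase St8sia6, the membrane-bending protein Fnbp1l and Klf2, with differences of 3.17, 2.63, 2.43, 2.36, 2.32 and 2.24. Cmah rose by 0.61 ± 0.19 in CD4 cells (adjusted p = 0.0339), a call lost in 5 of the 6 fits that left out 1 array (adjusted p from 0.0521 to 0.126). In CD8 cells Cmah fell (log2 change -2.56). Galnt3 fell in both lineages, by less in CD4 cells (-0.96) than in CD8 cells (-3.59). Klf2, S1pr1 and Pdcd1 rose in CD4 cells and fell in CD8 cells, where the changes were -0.58, -1.38 and -1.23.

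**Figure D4:**
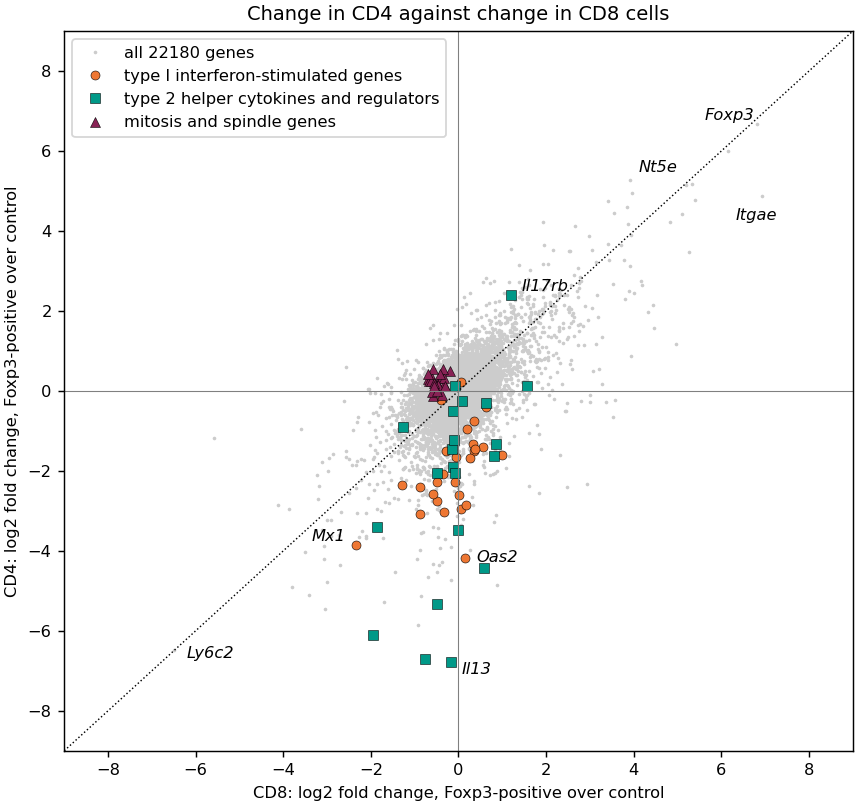
Each grey dot is 1 of 22180 genes, with its log2 fold change in CD8 cells across and in CD4 cells upward, the dotted line marks equal change, and orange circles, green squares and purple triangles mark type I interferon-stimulated, type 2 and mitosis genes. Foxp3 lies close to the line, Itgae below it and Nt5e above it, most orange and green points lie below the line near a CD8 change of 0, and the purple points lie above it.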

How the data were processed

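RNA of 12 sorted T cell samples was measured on Affymetrix mouse arrays, 1 array per sample. The deposited values are log2 expression levels. The authors applied RMA in Affymetrix Expression Console, according to the submitters' processing notes, and its version and the genome build were not given in the sources used here. Of 34365 transcript clusters 23521 had 1 gene symbol in the platform annotation, 1814 had several and 9030 had none. Each of 22180 genes was represented by its brightest single-symbol cluster by mean over the 12 arrays.

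All 12 arrays were fitted in limma 3.58.1 (R 4.3.3) with 1 mean per group, and contrasts were Foxp3-positive minus control in CD4 cells, the same in CD8 cells and their difference. P-values were adjusted over all genes by Benjamini-Hochberg. The number of arrays limits precision, and the depth of sequencing does not apply. On simulated data for the CD4 comparison with 22180 genes, 47.8% of changes of 0.5, 86.6% of changes of 1 and 98.5% of changes of 2 on the log2 scale were recovered, with 1.9% false calls. Far fewer genes were changed there than were called in the data, and the simulated noise was independent between genes. These rates therefore need not hold for the calls given here.

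The comparison and the 35 gene lists (27 pathway and 8 marker lists) were chosen with earlier results of these data known. Named by rule were Foxp3, Nt5e, Il13, Cd4, Cd8a and Cd8b1, the 12 largest rises and 12 largest falls and the 6 largest differences each way between the CD4 and CD8 effects, without predicted genes, small RNAs and receptor segments. The rule also named the 3 members of each list with the largest called change, its brightest member not called, and called members where 5 or fewer moved in a direction. For the largest rises and falls the rule required a call and no overlap between the 3 and 3 arrays. For the largest differences it required calls of the difference and of the CD4 change. Both also required a mean of at least 5.60 in the higher CD4 group. All other genes in the text were chosen after their values were seen. Promoters came from RefSeq's table of build GRCm38.p6. Alternatives were the 6 CD4 arrays alone, a trended and a robust variance prior, a replicate block, median centring, means of clusters, a level filter, a minimum fold of 1.2 (treat) and leaving out each array.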

Additional observations from a re-analysis of the deposited data

Results flagged for a closer look

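For each gene here the CD4 effect minus the CD8 effect, tested as an interaction term in limma over all 12 arrays, passed an adjusted p of 0.05. Values are log2 differences with the CD4 effect first, and negative values mean a lower effect in CD4 cells. A positive value can also mean a smaller fall in CD4 than in CD8 cells, as for Galnt3, Anxa2 and Asns. CD4 cells were cultured for 5 days and CD8 cells for 4, so lineage and time cannot be told apart.

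Cytokine and cytokine receptor genes gave the most negative differences, with Il13 at -6.59, Il24 at -5.94, Il10 at -5.72, Tgfb3 at -5.26, Il4 at -5.02, Il21 at -2.42 and Ifng at -1.40. Among receptors the values were Il1r2 at -4.93, Il4ra at -2.17, Il7r at -1.10 and Il2ra at -0.64 on the negative side and Il18r1 at 2.43 on the positive side. The type 2 associated genes Epas1 at -4.14 and Cyp11a1 at -4.83 were negative as well. CD8 control means of Il13, Il24, Il10, Il4, Il1r2 and Cyp11a1 lay between 4.43 and 5.92, so a large fall could not be seen there. The same limit held for Il21, Ermn, Ccr1, Cxcl3, Stra6 and Oas2, with CD8 control means of 4.33, 4.56, 4.52, 2.57, 5.94 and 5.86. Epas1 ended at 5.50 in CD4 and 5.46 in CD8 Foxp3-positive cells, from control means of 11.60 and 7.42. Surface and costimulatory genes gave Havcr2 at -2.41, Tnfrsf8 at -3.56, Ermn at -4.29, Adam8 at -1.69, Fcgr3 at -2.59, Cd3d at -0.65 and Cd8b1 at -1.66 below zero and Cd80 at 2.22, Cd28 at 0.80 and Ighm at 0.66 above it.

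Chemokine and homing genes gave Ccr1 at -3.49, Cxcl3 at -3.30, Ccr4 at -1.44, Cxcr6 at -1.11, Ltb4r1 at -1.09, Itgae at -2.05 and Itgb3 at -1.64 on the negative side and Ccr6 at 1.93 and Klf2 at 2.24 on the positive side. TGF-β feedback genes differed by Ldlrad4 at -0.62 and Skil at -0.43. Retinoic acid genes differed by Stra6 at -2.32, Cyp26b1 at 0.96 and Rdh11 at 0.90. In adenosine and nucleotide signalling the values were Nt5e at 1.35, Slc29a1 at 0.95 and P2ry14 at -1.51.

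Interferon-stimulated genes were all negative, with Oas2 at -4.34, Oas3 at -2.19, Mx1 at -1.51, Gbp9 at -3.19, Gbp10 at -2.30 and Gbp4 at -2.25. Cytotoxic genes gave Gzma at -3.95, Gzmb at -3.10 and Ctsw at 0.98. Transcription factors gave Ikzf2 at 2.00, Nr4a3 at 2.16, Tox at 1.12, Foxp1 at 1.01 and Myc at 0.57 above zero and Batf at -1.75, Satb1 at -1.59, Fosl2 at -1.21 and Stat3 at -0.45 below it.

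Cell cycle genes were all positive, with Cdca7 at 1.09, Gins1 at 1.14, Nusap1 at 1.14, Kif20a at 0.89, Ccnb2 at 0.70 and Top2a at 0.51. Metabolic genes gave Asns at 0.91, Shmt2 at 0.83 and Egln3 at -0.97. Signal feedback, survival and calcium-binding genes gave Dusp10 at -2.15, Bcl2 at -0.55, Bak1 at -0.61, S100a6 at -2.00 and Anxa2 at 1.11. Genes of glycan synthesis, transport and membranes were positive, with Cmah at 3.17, Galnt3 at 2.63, St8sia6 at 2.36, Fnbp1l at 2.32, Stxbp6 at 1.34, Glp1r at 0.99, Atp1b1 at 0.91 and Aqp3 at 0.74.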

How the results depend on the processing

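With a minimum fold of 1.2 in the test (treat), 1020 genes were higher and 1047 lower in CD4 Foxp3-positive cells, and 1129 differed between the CD4 and CD8 effects. These are fewer because small changes no longer pass. Leaving out 1 array gave 2059 to 2450 higher, 1775 to 2156 lower and 2253 to 3158 differing genes. The other alternatives gave 2390 to 3078 higher and 1997 to 2438 lower genes, and 2921 to 3640 differing ones. Replicate letters did not pair the samples, since deviations of same-letter arrays correlated at 0.012 (A), -0.102 (B) and -0.039 (C). With the replicate block 2601 genes were higher and 2271 lower, and 2921 differed. Of 149 named genes 131 kept their call under every alternative in which they were tested, 18 did not and 0 reversed direction. The level filter left out 10 of the 149. With treat, fewer members were called lower in the sterol (5 in place of 13), ATF4 (8 in place of 16), glycolysis (5 in place of 9) and cytotoxic (8 in place of 13) lists, and 1 in place of 9 mitosis genes was higher. The number of arrays, and levels near 5.60 without a background measure, limit small changes.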
